A study of Mus musculus with 38 samples.

Results

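Acetylation of histone H3 at lysine 27 (H3K27ac) was mapped at promoters in cells carrying either of 2 forms of SALL4, and the promoters of all 21938 annotated protein-coding genes were sorted by where a peak was called. A promoter was the stretch of 2 kb on each side of the 5′ end of a gene on the mouse genome build mm10, and a peak counted when it overlapped that stretch by 1 base or more. Of the 21938 promoters, 12724 carried a peak in at least one form: 10161 in both, 2291 in SALL4-delN12 only and 272 in SALL4-WT only, while 9214 had none. The 2 H3K27ac samples belong to a series of 38 samples. Both were made by Cut&Tag on day 6 from mouse embryonic fibroblasts (MEFs) that had been infected with a retrovirus for a single factor, either full-length SALL4 (SALL4-WT) or a SALL4 that lacks its N-terminal stretch of 12 residues (SALL4-delN12), and kept without BMP4 in the chemically defined medium iCD3. The MEFs came from E13.5 embryos of OG2 (CBA/CaJ×C57BL/6J) and 129S4/SvJaeJ parents. The medium, shared by both conditions, contains TV, vitamin C, bFGF, LIF, CHIR-99021 (an inhibitor of GSK3), SGC0946 (an inhibitor of the H3K79 methyltransferase DOT1L), an inhibitor of the demethylase LSD1 and Y27632 (an inhibitor of ROCK), so that both carry agents that act on chromatin. RNA-seq libraries of the same 2 conditions on day 5 and day 9 give the expression values, with 1 library per form and day. Both conditions thus start from the same cell type and add a retroviral Sall4 to whatever Sall4 the cells express themselves. The cultures were not sorted, and the study describes only some of their cells as becoming primitive endoderm-like.

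H3K27ac is a mark of active promoters and enhancers. It is written by the acetyltransferases p300 and CBP, read by bromodomain proteins and removed by histone deacetylases. SALL4 is a zinc finger transcription factor of early embryonic cells that binds the nucleosome remodelling and deacetylase complex NuRD through its N terminus. NuRD holds the deacetylases HDAC1 and HDAC2, and the deleted segment of SALL4-delN12 is the one through which it is recruited. Primitive endoderm (PrE) is the extra-embryonic lineage that lines the blastocyst cavity, is driven by GATA and SOX factors, and gives rise to the visceral and parietal endoderm of the yolk sac. The question the 2 lists address is at which promoters acetylation is seen with SALL4-delN12, SALL4-WT or both, and how that relates to the RNA levels of the genes.

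The sequences below stand for the classes that the results turn on. Each shows the 250 bases before the start site of its RefSeq entry (assembly GRCm38.p6), 5′ to 3′ on the strand of the gene. Capitals mark the matches to 6 short motifs searched on both strands, namely AGATAA for the GATA factors, TGTTTAC for FOX, CCATTGT for SOX, CCACACCC for KLF, TGANTCA for AP-1 and TATAAA for the TATA box. Col23a1 and C2cd4a had a peak with SALL4-delN12 only, and their expression differed in opposite directions. Postn is a fibroblast gene whose SALL4-delN12 peak lies at the rim of the window. Dusp6 had a peak with SALL4-WT only. Cyp27a1 and Klf4 had a peak in both lists. Pth1r and Cited1 are PrE genes with higher RNA in SALL4-delN12 and a peak in neither list.
Col23a1, SALL4-delN12 only and higher RNA, chr11:51289670-51289919, plus strand: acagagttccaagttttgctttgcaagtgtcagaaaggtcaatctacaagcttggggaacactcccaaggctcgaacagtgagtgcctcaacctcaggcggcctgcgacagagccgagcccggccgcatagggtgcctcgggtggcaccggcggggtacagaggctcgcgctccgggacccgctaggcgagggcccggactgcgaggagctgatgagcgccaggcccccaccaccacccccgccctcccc
C2cd4a, SALL4-delN12 only and lower RNA, chr9:67832331-67832580, minus strand: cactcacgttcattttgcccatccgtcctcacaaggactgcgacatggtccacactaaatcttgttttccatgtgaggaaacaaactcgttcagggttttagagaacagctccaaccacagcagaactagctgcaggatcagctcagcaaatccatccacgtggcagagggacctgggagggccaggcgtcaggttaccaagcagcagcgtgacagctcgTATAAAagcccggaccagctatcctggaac
Postn, SALL4-delN12 only and lower RNA, chr3:54360857-54361106, plus strand: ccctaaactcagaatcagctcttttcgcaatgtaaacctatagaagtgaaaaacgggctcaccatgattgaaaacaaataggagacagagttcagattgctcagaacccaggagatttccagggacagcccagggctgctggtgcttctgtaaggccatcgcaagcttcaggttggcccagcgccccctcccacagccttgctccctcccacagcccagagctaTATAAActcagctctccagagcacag
Dusp6, SALL4-WT only and lower RNA, chr10:99262981-99263230, plus strand: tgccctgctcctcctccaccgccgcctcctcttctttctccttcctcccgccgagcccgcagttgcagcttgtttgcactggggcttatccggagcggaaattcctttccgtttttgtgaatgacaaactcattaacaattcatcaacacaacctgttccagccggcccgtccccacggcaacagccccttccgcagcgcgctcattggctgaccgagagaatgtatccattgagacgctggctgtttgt
Cyp27a1, both and higher RNA, chr1:74713285-74713534, plus strand: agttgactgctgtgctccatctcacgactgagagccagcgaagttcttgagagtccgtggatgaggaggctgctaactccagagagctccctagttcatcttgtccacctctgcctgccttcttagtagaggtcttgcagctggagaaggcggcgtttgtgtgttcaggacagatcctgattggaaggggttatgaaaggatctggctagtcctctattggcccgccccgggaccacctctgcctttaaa
Klf4, both and lower RNA, chr4:55532476-55532725, minus strand: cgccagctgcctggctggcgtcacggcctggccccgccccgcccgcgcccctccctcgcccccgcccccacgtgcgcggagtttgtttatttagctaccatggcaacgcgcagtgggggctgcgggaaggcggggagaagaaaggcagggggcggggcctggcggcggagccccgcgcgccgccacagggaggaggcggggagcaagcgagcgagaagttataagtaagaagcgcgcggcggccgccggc
Pth1r, neither and higher RNA, chr9:110747146-110747395, minus strand: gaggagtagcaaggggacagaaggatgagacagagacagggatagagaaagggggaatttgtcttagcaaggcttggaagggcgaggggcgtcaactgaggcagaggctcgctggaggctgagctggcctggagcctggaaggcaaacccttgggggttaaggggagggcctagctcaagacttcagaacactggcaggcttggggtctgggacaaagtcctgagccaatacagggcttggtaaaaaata
Cited1, neither and higher RNA, chrX:102252182-102252431, minus strand: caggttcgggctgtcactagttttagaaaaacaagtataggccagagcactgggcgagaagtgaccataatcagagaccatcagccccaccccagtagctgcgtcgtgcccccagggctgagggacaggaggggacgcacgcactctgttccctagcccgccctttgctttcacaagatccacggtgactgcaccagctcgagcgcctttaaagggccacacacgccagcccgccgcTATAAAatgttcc
The TATAAA match begins 30 bases before the start in C2cd4a, 26 bases before it in Postn and 13 bases before it in Cited1, and the other 5 stretches hold no match to the 6 motifs. Counted over 300 bases, from 250 before to 50 after the start, CpG dinucleotides number 40 in Klf4, 24 in Col23a1, 19 in Dusp6, 18 in Cited1, 14 in C2cd4a, 10 in Cyp27a1 and 5 each in Postn and Pth1r.

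Base composition differed between the classes. Read from the genome around all 21938 start sites, the 300 bases held a median of 20 CpG dinucleotides where both forms had a peak (quartiles 13 and 28), 12 where only SALL4-delN12 had one (5 and 22), 13.5 where only SALL4-WT had one (6 and 25) and 3 where neither had (1 and 7). Taking an observed-over-expected CpG ratio of 0.6 or more as CpG-rich, 73.9% of promoters with both peaks were CpG-rich, against 43.0% with SALL4-delN12 only, 44.5% with SALL4-WT only, 12.1% with neither and 44.4% of all promoters. The share with both peaks was higher for CpG-rich promoters at each of 3 levels of expression. Among genes with a mean of 10 FPKM or more over the 4 RNA libraries (FPKM, a count of sequenced fragments scaled by gene length and by library size), 89.6% of 3787 CpG-rich promoters and 66.5% of 1513 others had both peaks, and 5.04% and 11.7% had one with SALL4-delN12 only. Among genes with a mean under 1 FPKM, 33.7% of 1645 CpG-rich promoters had both peaks, against 5.46% of 7424 others. TATAAA was found in 6.49% of promoters with both peaks, 10.96% with SALL4-delN12 only, 20.0% with neither and 12.6% of all. AGATAA was found in 5.96%, 8.38%, 15.4% and 10.2% in the same order. The AP-1 letters were found in 7.73% of SALL4-delN12-only promoters and 6.91% of all, the KLF letters in 4.67% and 4.07%, the FOX letters in 2.31% and 3.05%, and the SOX letters in 1.57% and 2.89%. A match is a description of the letters and not evidence of binding.

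The 2 peak lists are of unequal length, and that sets much of what follows. SALL4-delN12 has 45599 peaks covering 74.4 Mb, SALL4-WT 19841 peaks covering 34.9 Mb. The replicates of each form had been merged before peaks were called, so there is 1 list per form, no spread between replicates can be given, and no difference between the lists was tested. The intervals below are exact binomial 95% intervals and cover counting error only. The study's own notes list more read pairs for the SALL4-delN12 H3K27ac data than for SALL4-WT, and the peak score, which grows as the caller's p-value shrinks and starts at 50 in both lists, also grows with the number of reads. The part of read depth in the longer list cannot be told apart from a difference between the forms. Promoters were therefore classed a second time with SALL4-delN12 cut to its 19841 best-scoring peaks, all with a score of 161.46 or more. Sall4 itself had 491 FPKM with SALL4-WT and 623 with SALL4-delN12 on day 5, and 518 and 971 on day 9, which shows that the factor is transcribed but does not separate the 2 forms or the retroviral from the native copy. The best-scoring SALL4-WT peak of all, with a score of 1467, lies at Sall4 at chr2:168754350-168756955. The matching SALL4-delN12 peak scores 1008 and ranks 34, and neither can be assigned to the retroviral or the native copy.

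More promoters were covered in SALL4-delN12 at every distance from the start site, and the shape of the coverage was alike. Peaks covered 43.9% of promoters 150 bases downstream of the start with SALL4-WT and 51.9% with SALL4-delN12. Towards the edges the coverage dropped to 2.24% and 3.98% at 4950 bases upstream, and to 1.87% and 3.56% at 4950 bases downstream. A smaller share of the SALL4-delN12 peaks lay at promoters, 24.7% against 46.3% of the SALL4-WT peaks. With equal numbers of peaks the shares were 43.1% and 46.3%.

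**Figure D1:**
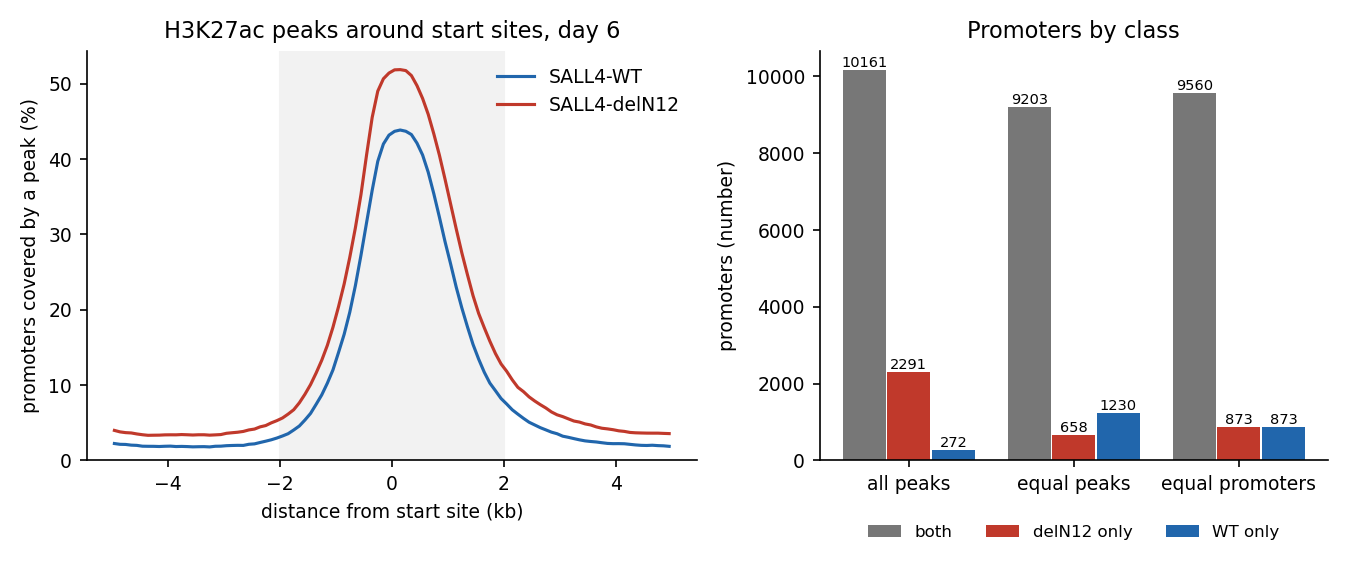
Left, percent of the 21938 promoters covered by an H3K27ac peak at each distance from the start site in kb, with the promoter window shaded. Right, number of promoters per class with all peaks, with equal numbers of peaks and with equal numbers of promoters. The SALL4-delN12 curve lies above the SALL4-WT curve, and the SALL4-delN12-only bar drops from 2291 to 658 while the SALL4-WT-only bar grows from 272 to 1230 once the lists are equal in length.

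With all peaks, 46.3% of promoters (interval 45.7% to 47.0%) had one in both forms, 10.4% (10.0% to 10.9%) in SALL4-delN12 only and 1.24% (1.098% to 1.395%) in SALL4-WT only. With equal numbers of peaks the order of the unique classes turned: 42% of promoters (9203) had a peak in both, 3% (658) in SALL4-delN12 only and 5.61% (1230) in SALL4-WT only. Of the 2291 promoters unique to SALL4-delN12, 658 (28.7%) stayed unique and 1633 (71.3%) lost their peak altogether. Of the 10161 shared promoters, 958 (9.43%) became unique to SALL4-WT, because their SALL4-delN12 peak scored under the cut. Over the 1230 promoters, the median score was 78.6 in SALL4-WT and, where the full list held a peak, 122 in SALL4-delN12. At equal numbers, a peak in SALL4-WT only can thus mean a SALL4-delN12 peak under the cut, also in the gene lists below. With equal numbers of promoters in place of peaks (10433 each), 9560 were shared and 873 were unique to each form. That matching makes the unique classes equal in advance and cannot say which form has more. Which form has more promoters with a peak thus differed between all peaks and equal numbers of peaks. At least 9203 promoters were shared in each of these 3 comparisons.

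Where a peak was present in both lists, its score was usually higher in SALL4-delN12. The median score was 183 with SALL4-WT (quartiles 117 and 266) and 382 with SALL4-delN12 (255 and 523). The ratio had a median of 2.01 (quartiles 1.67 and 2.47), and SALL4-delN12 scored higher at 9875 of 10161 promoters (97.2%). Peaks also covered more of the window, 2196 against 1824 bases in the median, and more in SALL4-delN12 at 78.3% of the shared promoters. A shift of this breadth includes genes used in all cells: among the 19 of 23 housekeeping genes with both peaks, 18 scored higher with SALL4-delN12 and the median ratio was 1.87. Hprt, which recycles purines, scored 277 and 554. Pgk1, a glycolytic kinase, was the exception, with 540 in SALL4-WT and 353 in SALL4-delN12. The order of promoters by score was similar in the 2 lists, with a Spearman coefficient of 0.835 over the 10161 promoters, which share their gene set, build and peak caller.

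Peaks unique to one form had lower scores in the median than shared ones, with exceptions named below. The median score at promoters unique to SALL4-delN12 was 110 (quartiles 77.6 and 172) over 1031 bases, well below the 382 of shared promoters in the same list. It was 72.8 (58.3 and 107) at promoters unique to SALL4-WT. The nearest SALL4-WT peak lay a median of 28334 bases from the start site of a SALL4-delN12-only promoter, and within 5 kb at 210 of 2291 (9.17%). For the SALL4-WT-only promoters the nearest SALL4-delN12 peak lay a median of 10488 bases away, and within 5 kb at 47 of 272 (17.3%). The best-scoring promoters unique to SALL4-delN12 were edge cases of the window. Larp4, an RNA-binding regulator of translation, scored 870 and Cd80, a T cell co-stimulatory ligand, 713, followed by Angel2 at 609, Gm29666 at 604 and Tssk1, a testis kinase, at 587. In these 5 the SALL4-delN12 peak entered the window by 35 to 179 bases, the SALL4-WT peak ended 2037 to 2571 bases from the start, and none had an ATAC-seq peak in the window in any library used.

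The best-scoring promoters unique to SALL4-WT were of another kind. Phlda3, a p53 target that restrains AKT, scored 327 over 2756 bases. Ier5, an immediate early gene, scored 275, Dusp6, a phosphatase of ERK, 246, Pdlim7, a cytoskeletal adaptor, 236 and Nfe2l1, a regulator of proteasome genes, 231. In each the peak covered the start site and the nearest SALL4-delN12 peak was 7158 to 21631 bases away. All 5 had ATAC-seq peaks in MEFs and in both forms on day 5, and a SALL4 Cut&Tag peak with SALL4-WT. Their RNA did not move as a group. Dusp6 had 70.4 FPKM with SALL4-WT and 20.8 with SALL4-delN12 on day 5, and 103 and 20.5 on day 9, while Ier5 had 61.6 and 69.4, then 58.9 and 62.5. Dusp6 was the only one of the 5 whose difference reached 1 on the log2 scale, at -1.71 and -2.27.

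**Figure D2:**
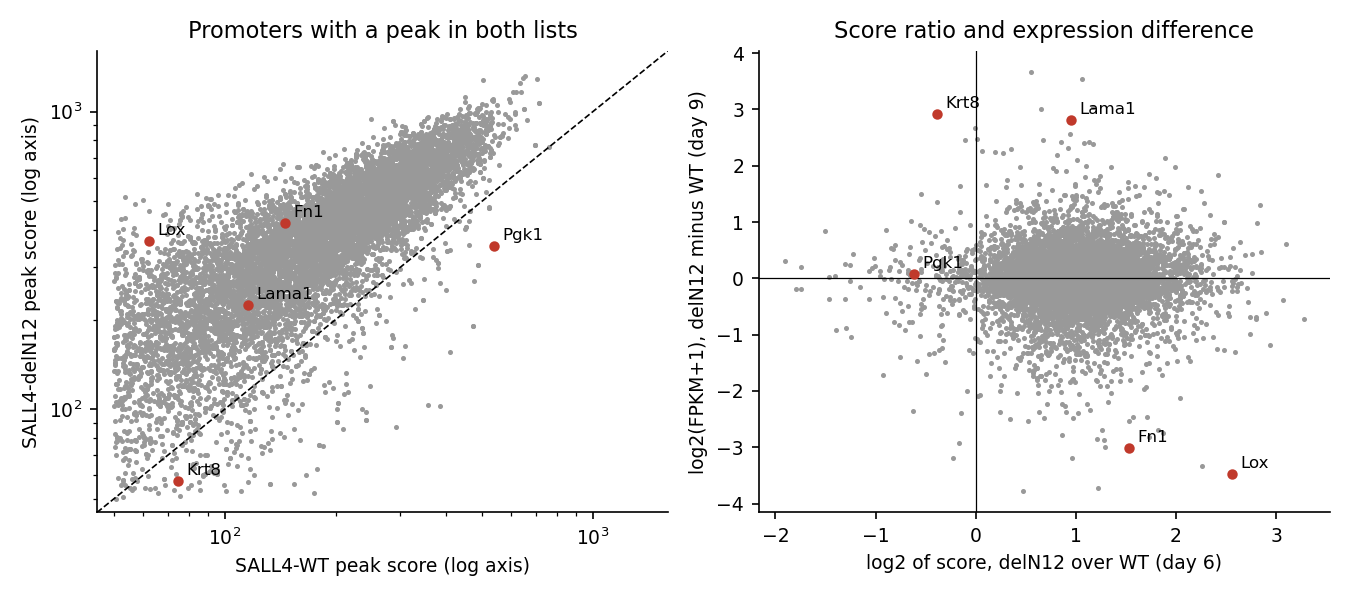
Promoters with a peak in both lists. Left, SALL4-delN12 against SALL4-WT peak score on log axes, with the dashed line marking equal scores. Right, log2 of the score ratio on day 6 against the difference in log2(FPKM+1) on day 9, SALL4-delN12 minus SALL4-WT, 1 point per gene. Nearly all points lie above the line on the left, and on the right the cloud shows no slope (Spearman 0.01 over 8877 genes), with Lox and Fn1 low and Lama1 and Krt8 high.

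The median level of RNA was higher in each class with a promoter peak than in the class with neither. On day 5 the median in the SALL4-WT library was 8.54 FPKM for genes with both peaks, 0.968 with SALL4-delN12 only, 11.6 with SALL4-WT only and 0 with neither. The medians in the SALL4-delN12 library were 8.44, 1.02, 10.0 and 0. Over all genes the medians were 1.67 and 1.74 in the 2 libraries, above those of the SALL4-delN12-only class. Of the 3724 genes listed at 0 in all 4 libraries, 97.3% had no peak and 0.644% had both. Between a mean of 10 and 100 FPKM, 83.9% of 4698 genes had both peaks and 7.00% had none. The relation was not complete at the top: of 602 genes with a mean of 100 FPKM or more, 72 (11.96%, interval 9.48% to 14.8%) had no promoter peak in either list. Actb (730 to 830 FPKM) and Gapdh (77.7 to 143 FPKM) were among them, as was Sparc (1437 to 1798 FPKM), a secreted matrix glycoprotein. Of these 72, 44 (61.1%) had an ATAC-seq peak in MEFs and 28 (38.9%) a SALL4-WT Cut&Tag peak, beside 66.2% and 51.5% of all promoters. An H3K27ac peak at another annotated start of the same gene was listed for 24 of the 72. A promoter without a listed peak is therefore not shown to lack acetylation.

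Differences in RNA between the forms were next set against the promoter classes. A gene was compared where it had 1 FPKM or more in either library of the day, and it was counted as higher or lower when log2(FPKM+1) differed by at least 1 between the forms. With a single library per form and day these are differences between libraries within a day, and no test was run. In unsorted cultures, a change in how many cells of a type are present and a change in RNA per cell cannot be told apart. On day 5, 4.45% of 11684 genes were higher in SALL4-delN12 and 4.85% lower, and on day 9 these shares were 5.77% and 5.66% of 11818 genes.

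Genes with a promoter peak unique to SALL4-delN12 were not shifted upward in SALL4-delN12. Their median difference was -0.01 on day 5 and 0.05 on day 9, beside -0.01 and 0.03 for all genes. They were, however, more often different in either direction. On day 5, 13.0% of 1222 were higher (interval 11.2% to 15.0%) and 12.4% lower (10.6% to 14.4%). On day 9, 14.2% of 1268 were higher (12.3% to 16.2%) and 12.4% lower (10.6% to 14.3%). Genes with both peaks were the most alike between the forms, with 1.64% higher and 2.99% lower on day 5, and 2.399% and 3.66% on day 9. The SALL4-WT-only class also differed in both directions, with 10.6% higher and 8.54% lower of 199 genes on day 5, and 11% and 9.50% of 200 on day 9. Genes with neither peak had 13.8% and 9.44% on day 5 and 18.1% and 11.4% on day 9, and differences between these shares were not tested. The contrast was also seen within a level of expression. Among genes of 10 to 100 FPKM on day 9, 14.1% of the SALL4-delN12-only genes were higher and 15.6% lower, against 2.22% and 3.62% of those with both peaks. The shares were 4.19% and 4.93% over all genes of that level, 12.2% and 7.14% with SALL4-WT only, and 15.4% and 9.34% with neither. Frequent differences were thus not particular to the SALL4-delN12-only class.

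**Figure D3:**
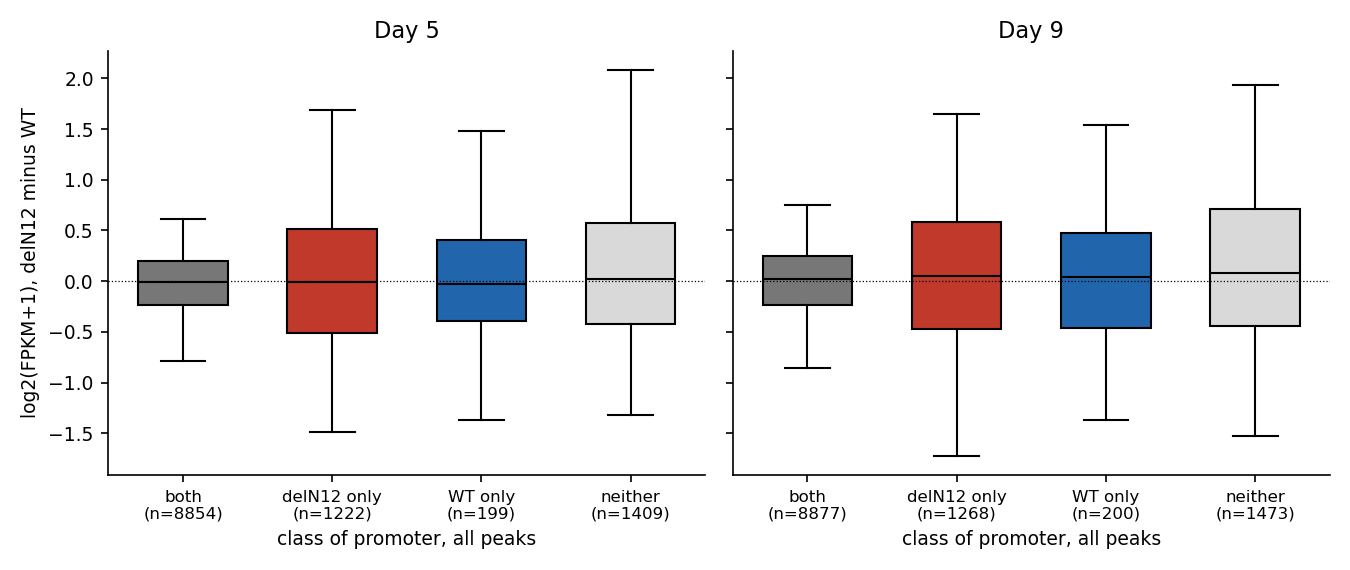
Difference in log2(FPKM+1), SALL4-delN12 minus SALL4-WT, on day 5 (left) and day 9 (right) for genes in each promoter class with all peaks. Boxes span the quartiles around the median and whiskers reach from percentile 5 to percentile 95 of the genes. All medians lie near 0, and the box of the genes with both peaks is the narrowest.

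Read from the side of expression, 57.6% of the 682 genes that were higher in SALL4-delN12 on day 9 and 58.5% of the 520 on day 5 had a promoter peak in that list, beside 85.8% and 86.2% of all genes tested. Of the 682 genes higher on day 9, 39.1% had neither peak, 31.2% both, 26.4% SALL4-delN12 only and 3.23% SALL4-WT only. The classes made up 12.5%, 75.1%, 10.7% and 1.69% of all genes tested. Of the 669 lower genes, 25.1% had neither peak, 48.6% both, 23.5% SALL4-delN12 only and 2.84% SALL4-WT only. With equal numbers of peaks, 6.74% of the higher genes had a peak in SALL4-delN12 only and 11.3% in SALL4-WT only, beside 3.37% and 8.16% of all genes tested. Among shared promoters, the ratio of scores had a Spearman coefficient of -0.02 with the expression difference on day 5 (8854 genes) and 0.01 on day 9 (8877 genes), the points sharing the same 2 peak lists and 2 libraries. In the tenth with the largest ratios (median 3.51), 3.60% of 888 genes were higher and 4.95% lower on day 9. In the tenth with the smallest (median 1.17), the shares were 3.72% and 5.74%.

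The genes below had a promoter peak unique to SALL4-delN12 both with all peaks and with equal numbers of peaks, and are those with the largest differences. Dusp9, a phosphatase that turns off MAP kinases, had 13.5 FPKM with SALL4-WT and 103 with SALL4-delN12 on day 5, and 11.2 and 149 on day 9, a log2 difference of 3.62. Tfap2c, a transcription factor of trophoblast and germ cells, had 1.39 and 21.4 FPKM, then 2.24 and 30.4, a difference of 3.28. Both were higher in both SALL4-delN12 libraries than in either SALL4-WT library, and their peaks, with scores of 188 and 162, covered the start site. Ntng2, Arsi, Prkag3, Col23a1, H2afy2 and Sstr2 completed the 8, with differences of 2.13 to 3.13 on day 9 and 1.51 to 2.63 on day 5. Col23a1, a transmembrane collagen, had 8.60 and 45.6 FPKM on day 5 and 9.39 and 45.9 on day 9 with a score of 211. H2afy2 encodes the histone variant macroH2A2 and Sstr2 a somatostatin receptor. On day 5 Pglyrp1, an innate immune protein, Cryba2, a crystallin, and Krt80, a keratin, ranked with them, at 3.97, 2.99 and 2.97.

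Lower genes of the same class were just as marked. C2cd4a had 58.7 FPKM with SALL4-WT and 6.57 with SALL4-delN12 on day 5, and 72.5 and 2.99 on day 9, a difference of -4.20, at a score of 177. Areg, a ligand of the EGF receptor, had 3.57 and 0.314 FPKM, then 14.2 and 0.211, a difference of -3.65. For both, the SALL4-WT libraries were the high ones on both days although a peak was listed for SALL4-delN12 only. Tm4sf1, a membrane protein of migrating cells, and Ogn, a small matrix proteoglycan, differed by -2.42 and -2.24 on day 9. Postn, the fibroblast matrix protein periostin, had 124 and 11.7 FPKM on day 5 and 78.8 and 17.4 on day 9. Its SALL4-delN12 peak, with a score of 318, entered the window by only 168 bases, and a SALL4-WT peak began 2008 bases from the start, so its class rests on the edge of the window.

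**Figure D4:**
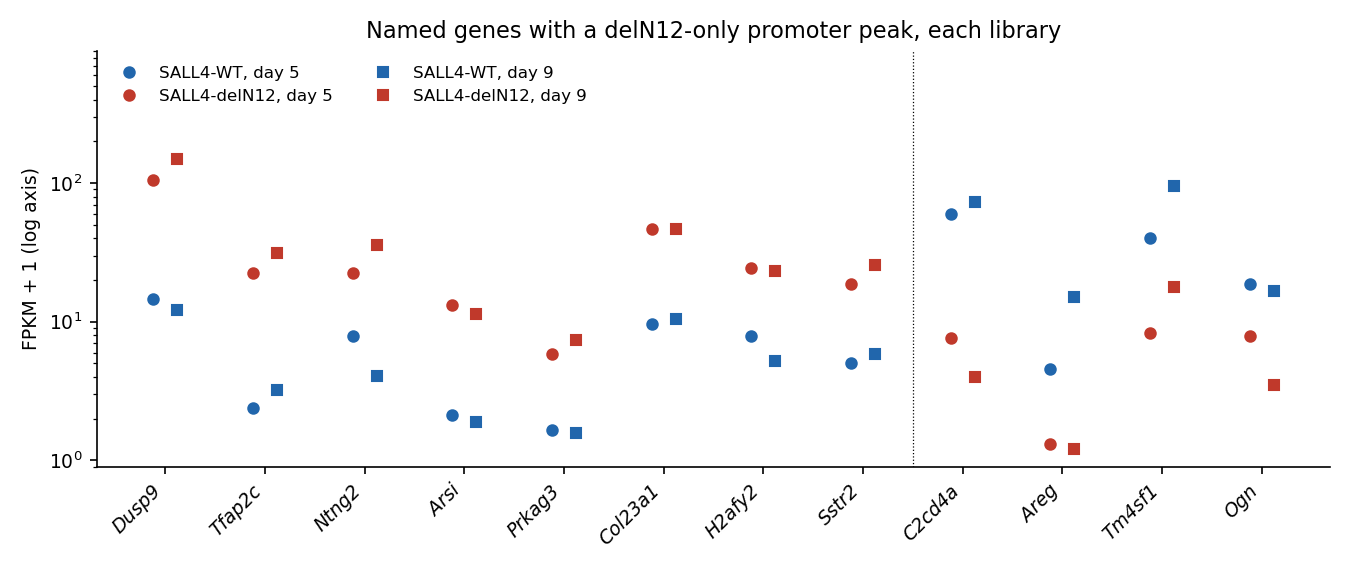
FPKM + 1 on a log axis in each of the 4 RNA libraries for the 8 genes with the largest positive day 9 difference and 4 with a large negative one among genes with a promoter peak unique to SALL4-delN12. Circles are day 5, squares day 9, 1 library each. The SALL4-delN12 points lie above the SALL4-WT points in the first 8 genes and below them in the other 4, on both days.

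Of 964 genes tested on day 9 with a promoter peak unique to SALL4-WT at equal numbers of peaks, 7.99% were higher and 9.02% lower, beside 5.77% and 5.66% of all genes, and those named here have the largest differences. Ngfr, the low-affinity neurotrophin receptor, had 2.88 FPKM with SALL4-WT and 36.0 with SALL4-delN12 on day 5, and 7.84 and 115 on day 9, a difference of 3.71. Fzd10, a Wnt receptor, had 1.70 and 31.8 FPKM, then 1.97 and 30.9. Their peaks were near the bottom of the SALL4-WT list, with scores of 52.9 and 50.8. Col26a1 (3.67), Slc30a2 (3.01) and Krt8 (2.91) were also higher on day 9, but had a SALL4-delN12 peak in the full list. In the other direction Bmp2, a BMP ligand, had 57.5 and 4.19 FPKM on day 5 and 73.4 and 4.40 on day 9, a difference of -3.79. Kng1, Bst1, Lbp and Spon2 differed by -3.72, -3.23, -3.20 and -3.10. Bmp2 and Lbp also had SALL4-delN12 peaks in the full list, with scores of 147 and 115, whereas Kng1, Bst1 and Spon2 had none.

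Among genes with both peaks at equal numbers, expression and score could go opposite ways. The score was higher in SALL4-delN12 at 97.2% of all shared promoters, so a higher score does not set the genes named here apart. Fn1, the matrix protein fibronectin, had 756 FPKM with SALL4-WT and 87.7 with SALL4-delN12 on day 5, and 895 and 110 on day 9, while its score was 146 with SALL4-WT and 421 with SALL4-delN12. Lox, which cross-links collagen, had 36.8 and 3.62 FPKM, then 51.4 and 3.69, with scores of 62.1 and 367. Both genes had less RNA and a higher score in SALL4-delN12. Ereg and Kng2 differed by -3.73 and -3.33 on day 9 and also scored higher in SALL4-delN12. The genes that were higher were Cyp27a1, a sterol hydroxylase, with 1.52 and 17.1 FPKM, then 1.90 and 32.8, Fabp3, Lama1 and Cldn6, with differences of 2.57 to 3.54, followed by Tmem132c with 8.18 and 47.6 FPKM on day 9. Their scores were likewise higher in SALL4-delN12, for example 147 and 309 at Cyp27a1.

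Of the 12 PrE genes named by the study, 5 had both peaks (41.7%), 7 had neither and none had one in SALL4-delN12 only, at all peaks as well as at equal numbers, beside 46.3% of all promoters with both and 42.0% with neither. The list was chosen on this system by the study and is not independent evidence of a direction. The 5 shared promoters scored higher in SALL4-delN12: Gata6, a founding PrE transcription factor, 141 and 347, Chst15, a sulfotransferase, 126 and 413, Lama1, a laminin chain, 115 and 224, Eva1a, a regulator of autophagy, 102 and 197, and Klf4, a zinc finger factor, 224 and 383. Their median ratio was 1.94, close to the 2.01 of all shared promoters and the 1.87 of housekeeping genes. RNA did not follow the class. On day 9, 7 of the 12 were higher in SALL4-delN12 and 1 was lower, with a median difference of 1.76, and on day 5, 3 were higher and 1 lower of 10 tested, with a median of 0.32. Over all genes 5.77% were higher and 5.66% lower on day 9, and 4.45% and 4.85% on day 5, with medians of 0.03 and -0.01.

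Of the 7 higher PrE genes, 6 had neither peak. Cited1, a transcriptional co-activator, had 1.58 FPKM with SALL4-WT and 16.4 with SALL4-delN12 on day 5, and 1.52 and 34.9 on day 9. Pth1r, the parathyroid hormone receptor and a marker of parietal endoderm, had 1.55 and 4.16, then 1.07 and 13.7. Gata4 had 0.81 and 1.91, then 0.964 and 9.48, and Pitx1 17.9 and 38.3, then 14.6 and 55.5. In all 4 genes both SALL4-delN12 libraries lay above both SALL4-WT libraries. Sox17 was listed at 0 in both SALL4-WT libraries and had 0.162 and 4.88 FPKM in SALL4-delN12, and Foxa2 reached 2.59 on day 9. Their nearest SALL4-delN12 peak lay between 14156 bases from the start at Pth1r and 174023 bases at Sox17. Lama1 was the 1 gene with both peaks that was higher, with 1.65 and 2.35 FPKM on day 5 and 1.84 and 19.0 on day 9. Gata6 had 4.26 and 2.52 FPKM, then 4.23 and 3.25, and Klf4 12.8 and 2.45, then 19.1 and 8.08, so that Klf4 was lower on day 9 by more than 1 on the log2 scale and Gata6 differed by less than that, both beside a higher score in SALL4-delN12. Dab2, an endocytic adaptor, had neither peak at its gene start and both at another annotated start, with 6.80 to 11.6 FPKM in the 4 libraries.

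A wider list of 13 endoderm transcription factors gave a similar picture. Gata6, Sox7, Foxa3 and Foxq1 had both peaks, 8 factors had neither, and Hhex had one in SALL4-delN12 only (7.69% of the list, beside 10.4% of all promoters, with 46.3% of all in both and 42.0% in neither). Hhex, a homeobox factor of anterior visceral endoderm and liver, scored 283 and kept its class at equal numbers of peaks, with the nearest SALL4-WT peak 57938 bases away. Its RNA stood at 5.32 and 1.88 FPKM on day 5 and 4.45 and 2.00 on day 9. With differences of -1.14 and -0.86, it was counted as lower in SALL4-delN12 on day 5 only. Foxa3 scored 81.4 and 284 but stayed between 0 and 0.905 FPKM in the 4 libraries. Gata4, Sox17 and Foxa2, which were higher on day 9, had neither peak.

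Of 14 genes of basement membrane and parietal endoderm, 8 had both peaks and 5 had one in SALL4-delN12 only, a share of 35.7% beside 10.4% of all promoters. Lama5, Lamb1 and Nid1 encode laminin chains and nidogen, Thbd thrombomodulin and Pthlh the parathyroid hormone-related peptide. With equal numbers of peaks only Lamb1 (score 166) and Thbd (197) stayed unique to SALL4-delN12, 14.3% beside 3% of all, and 2 promoters were unique to SALL4-WT. Those 2, Hspg2 and Fst, had SALL4-delN12 peaks under the cut, with scores of 147 and 157. Of the 4 compared among the 5 genes with a SALL4-delN12-only peak, Nid1 and Thbd were lower and none was higher. Nid1 had 191 and 74.1 FPKM on day 5 and 316 and 110 on day 9, and Thbd 6.49 and 2.02, then 13.1 and 4.09. Lama5 and Lamb1 differed by less than 1. Over the whole list, 5 of 13 tested were lower on each day, beside 4.85% and 5.66% of all genes. None was higher on day 5 and 1 was on day 9, beside 4.45% and 5.77% of all genes. Pthlh was under 1 FPKM in all 4 libraries and was not compared. Lower genes with both peaks were Col4a1 and Col4a2, collagen IV chains that share a start region and a peak, and Fst, a follistatin. Among 10 visceral endoderm genes, 3 had a weak SALL4-delN12-only peak (30%, beside the same 10.4%) and 7 had neither, beside 42.0% of all promoters. At equal numbers all 10 had neither, beside 49.4% of all. On day 5, 2 of 2 tested were higher, and on day 9, 3 of 5, beside 4.45% and 5.77% of all genes. Those higher on day 9 were Apoa1, Apoa4 and Ihh, of which Apoa4 and Ihh had neither peak. Apoa1, an apolipoprotein, scored 56.7 and had 0.676 and 11.6 FPKM on day 5 and 0 and 14.9 on day 9. Lrp2 and Rbp4, of endocytosis and retinol transport, stayed at or below 2.09 FPKM.

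Fibroblast genes, which mark the starting cells, held unique peaks of both kinds. Of 20, 9 had both peaks (45%), 6 SALL4-delN12 only (30%), 2 SALL4-WT only (10%) and 3 neither. These classes held 46.3%, 10.4%, 1.24% and 42.0% of all promoters. At equal numbers of peaks 9 had both, 2 SALL4-delN12 only, 2 SALL4-WT only and 7 neither, beside 42%, 3%, 5.61% and 49.4% of all. On day 9, 10 were lower in SALL4-delN12, with a list median of -1.05, and 1 was higher, beside 5.66% lower and 5.77% higher over all genes. Of the 6 with a SALL4-delN12-only peak, Postn, Dcn, Lum and Col6a1, all matrix genes, were lower, and Pdgfrb, a growth factor receptor, was higher, with 8.78 and 21.6 FPKM on day 5 and 13.0 and 44.7 on day 9. Pdgfrb kept its class at equal numbers of peaks, with a score of 250. The 2 SALL4-WT-only genes went apart: Col1a1 had 693 and 1424 FPKM, then 727 and 1356, and Prrx1, a mesenchymal homeobox factor, 41.1 and 12.9, then 43.9 and 10.3. All 8 fibroblast markers had 8.78 FPKM or more in every library, with a median marker of 92.2 and 36.6 FPKM on day 5 and 76.3 and 45.3 on day 9. Their sum was higher in SALL4-delN12, at 1933 and 2133 FPKM on day 5 and 1844 and 2085 on day 9. Col1a1 made up 693 and 1424 of it on day 5 and 727 and 1356 on day 9. That rise was larger than the rise of the sum, so the other markers together summed lower in SALL4-delN12. List members outside the 8 markers reached lower levels, with Dcn at 1.30 and Lum at 2.44 FPKM in SALL4-delN12 on day 5.

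Epithelial, macrophage and trophoblast genes were more often higher than lower in the SALL4-delN12 libraries, and their promoter classes differed from list to list. Of 16 epithelial genes, 10 of 14 tested were higher on day 9 and none was lower, beside 5.77% and 5.66% of all genes. Of the 16, 4 had a peak in SALL4-delN12 only (Krt18, Krt19, Ocln and St14), a share of 25% beside 10.4% of all promoters, and 1 in SALL4-WT only. At equal numbers of peaks this turned to 1 in SALL4-delN12 only and 4 in SALL4-WT only (6.25% and 25%, beside 3% and 5.61% of all). Krt8, a keratin of simple epithelia, had 11.3 and 166 FPKM on day 5 and 21.8 and 170 on day 9, and yet its score was 74.8 with SALL4-WT and 57.4 with SALL4-delN12. Cdh1, the epithelial cadherin, had 0.56 and 16.3, then 2.52 and 11.2, with neither peak. Of 10 macrophage genes, 9 had neither peak, beside 42.0% of all promoters, and all 9 tested were higher on day 9, beside 5.77% of all genes. C1qa, a complement subunit, had 3.03 and 56.9 FPKM, then 2.43 and 57.1. Cd68, the 1 macrophage gene with peaks, scored 88.5 and 60.4. Trophoblast genes had a SALL4-delN12-only peak in 4 of 10 (40%, beside the same 10.4%), among them Tfap2c, and in 1 of 10 at equal numbers of peaks, beside 3% of all. Of the 8 tested, 4 were higher on day 9 and none was lower, beside the same 5.77% and 5.66%.

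The summed FPKM of 6 defining markers per cell type differed between the forms. Macrophage markers summed to 22.1 to 32.6 in the SALL4-WT and 141 to 142 in the SALL4-delN12 libraries, epithelial markers to 133 to 175 and 889 to 899, and trophoblast markers to 5.28 to 9.25 and 75.2 to 129. Krt7, a keratin, made up most of the trophoblast sum in SALL4-delN12, with 104 FPKM on day 5 and 42.0 on day 9, while the median trophoblast marker had 0.866 and 1.73 FPKM on day 5 and 1.05 and 1.26 on day 9. PrE markers summed to 16.2 to 19.7 with SALL4-WT, with Sox17 listed at 0, and to 17.9 on day 5 and 60.9 on day 9 with SALL4-delN12. Endothelial markers summed to 4.05 and 4.03 in the SALL4-WT libraries and to 9.36 and 8.69 in the SALL4-delN12 libraries. Pluripotency markers summed to 1.71 and 1.77 with SALL4-WT and to 1.23 and 3.67 with SALL4-delN12. Dppa5a, at 2.96 FPKM, made up most of the last sum, and the median pluripotency marker had 0.0536 and 0.101 FPKM on day 9. Sox2 went the other way, with 1.25 and 0.133 FPKM on day 5 and 1.43 and 0.0831 on day 9. On day 9, 4 of 6 PrE markers reached 1 FPKM with SALL4-WT and 6 of 6 with SALL4-delN12. What part such cells have in the promoter peaks was not tested, since the peak lists come from whole cultures.

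**Figure D5:**
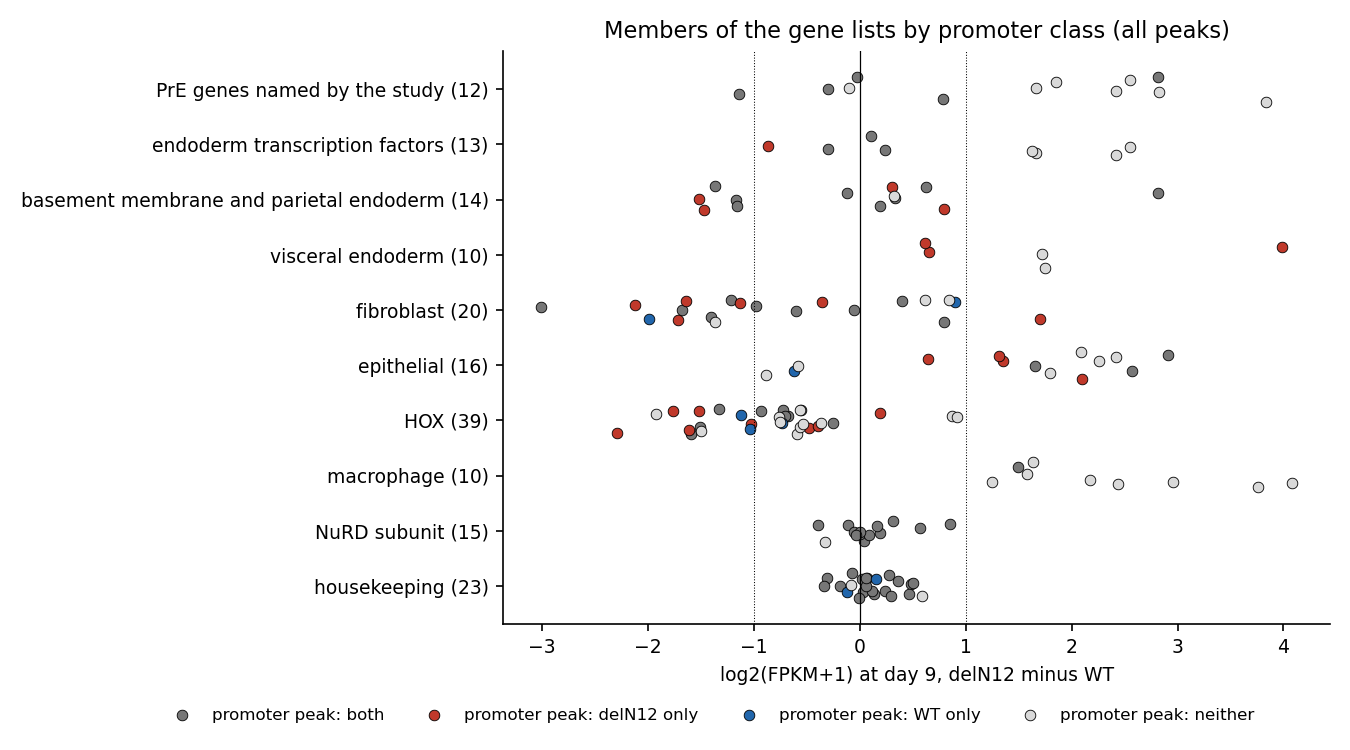
Difference in log2(FPKM+1) on day 9, SALL4-delN12 minus SALL4-WT, for the members of 10 gene lists with an expression value, coloured by promoter class with all peaks. The list size stands in parentheses and thin lines mark -1 and 1. Macrophage and PrE members to the right are mostly of the class with neither peak, and the HOX and fibroblast members to the left include promoters unique to SALL4-delN12.

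HOX genes, which set positional identity and are silenced by Polycomb where not used, had 9 promoters unique to SALL4-delN12 among 39 (23.1%), 3 unique to SALL4-WT and 11 with both (28.2%), beside 10.4%, 1.24% and 46.3% of all promoters. None of the 9 kept the class at equal numbers of peaks, where 9 promoters were unique to SALL4-WT and 5 had both (23.1% and 12.8%, beside 5.61% and 42% of all). On day 9, 12 of 32 tested were lower and none was higher, with a list median of -0.73, beside 5.66% lower and 5.77% higher and a median of 0.03 over all genes. Hoxc8 had 19.7 and 4.33 FPKM on day 5 and 12.6 and 1.77 on day 9 with a SALL4-delN12-only peak scoring 60.8, and Hoxc10 had 19.6 and 6.09, then 13.2 and 3.16, with one of 103 that it shares with Hoxc5. Of 10 neuronal genes, 5 had a SALL4-delN12-only peak beside 10.4% of all promoters, and 2 did at equal numbers of peaks beside 3% of all. Of the 3 tested on day 9, 2 were lower and none was higher, beside 5.66% and 5.77% of all genes. Snap25, a synaptic fusion protein, scored 460, kept its class at equal numbers and had at most 0.228 FPKM in any library. A strong promoter peak and an RNA level near 0 therefore occurred together.

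The genes tested from the machinery that writes, reads and removes the mark all differed by less than 1 on the log2 scale. So did most genes, 10597 of 11684 tested on day 5 and 10467 of 11818 on day 9. Of 15 NuRD subunit genes, 13 had both peaks (86.7%, beside 46.3% of all promoters) and none had a unique one with all peaks. At equal numbers of peaks 10 had both and 3 had one in SALL4-WT only, beside 42% and 5.61% of all. The SALL4-delN12 peaks of those 3 fell under the cut. None of the 14 tested differed by 1 or more in RNA on either day, with medians of 0.03 and 0.02. Over all genes 4.45% were higher and 4.85% lower on day 5, and 5.77% and 5.66% on day 9, so that few would be counted among 14. Hdac1 and Hdac2 scored 140 and 324, and 638 and 1166. Of 11 genes for acetyltransferases, acetyl-lysine readers and deacetylases, 8 had both peaks, and Kat2a and Hdac8 had one in SALL4-delN12 only (72.7% and 18.2%, beside 46.3% and 10.4% of all promoters). At equal numbers of peaks 6 had both, 1 had one in SALL4-delN12 only and 2 in SALL4-WT only, beside 42%, 3% and 5.61% of all. The SALL4-delN12 peaks of those 2 fell under the cut. None of the genes tested differed by 1 or more, beside the shares of all genes given above. Ep300, the main writer of H3K27ac, had 8.33 and 8.34 FPKM on day 5 and 9.04 and 8.56 on day 9, with scores of 423 and 531. Of 6 BMP target genes 4 were lower on both days, beside 4.85% and 5.66% of all genes, among them Id1 with 548 and 214 FPKM on day 5, which had neither peak, and Id2 with 191 and 73.5, which had one in SALL4-WT only. Among 20 cell cycle genes, 17 had both peaks (85%, beside 46.3% of all promoters), and at equal numbers of peaks 11 had both and 7 had one in SALL4-WT only, beside the same 42% and 5.61%. With all peaks 1 of the 20 was unique to SALL4-WT. Of the 20, 6 were higher on day 9, led by Mcm6 at 1.65, beside 5.77% of all genes. On day 5 none of the 20 was higher, beside 4.45% of all genes. Of 20 pluripotency genes 13 had neither peak, beside 42.0% of all promoters. The 4 SALL4-delN12-only promoters of this list (Dppa2, Dppa5a, Utf1 and Tfcp2l1), 20% beside 10.4% of all, had neither peak at equal numbers.

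Readouts that the classes did not use set the same promoters apart. SALL4 Cut&Tag peaks of SALL4-WT on day 6 overlapped 90.1% of promoters with both H3K27ac peaks, 48.8% with SALL4-delN12 only, 65.8% with SALL4-WT only, 9.16% with neither and 51.5% of all. SALL4-delN12 Cut&Tag peaks overlapped 69.1%, 37.6%, 32.0%, 5.12% and 38.5% in the same order. At 41.2% of the promoters whose H3K27ac peak was unique to SALL4-delN12 neither form of SALL4 had a peak, and at 10.0% SALL4-delN12 alone had one, beside 45.3% and 3.21% of all promoters. SALL4-WT alone had one at 21.3% and both forms at 27.6%, beside 16.3% and 35.3% of all. The SALL4 lists, too, differ in length and are 1 per form. At equal numbers of H3K27ac peaks, 58.8% and 52.6% of the SALL4-delN12-only promoters had a SALL4-WT and a SALL4-delN12 peak.

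Most promoters unique to SALL4-delN12 had an ATAC-seq peak in the starting cells. ATAC-seq, which marks accessible DNA, gave a peak in MEFs at 89.6% of them, beside 99.2% with both, 79.0% with SALL4-WT only, 23.7% with neither and 66.2% of all. On day 5 the share was 86.3% in SALL4-WT and 76.0% in SALL4-delN12, and on day 9 it was 84.2% and 81.8%. Over all promoters it was likewise lower in SALL4-delN12, at 64.4% and 59.8% on day 5 and 63.7% and 61.4% on day 9. Of the 2291, 100 (4.36%) had a day 5 ATAC-seq peak in SALL4-delN12 only and 337 (14.7%) in SALL4-WT only, beside 1.53% and 6.11% of all promoters. A peak that was absent in MEFs and present in SALL4-delN12 on day 5 was seen at 77 (3.36%), beside 1.56% of all. Another protein-coding promoter overlapped the window at 27.7% of promoters with both peaks, 12.4% with SALL4-delN12 only and 17.6% of all, so that neighbouring genes can share a peak.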

How the data were processed

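H3K27ac and SALL4 Cut&Tag (day 6), ATAC-seq (MEFs, days 5 and 9) and RNA-seq (days 5 and 9) were analysed, with 1 peak list or library per group. Per the submitters' processing notes, reads were trimmed with Trim Galore 0.6.4 and mapped to mm10, Cut&Tag and ATAC-seq reads with Bowtie2 2.4.5 and SAMtools 1.16.1, RNA reads with HISAT2 2.2.1. The authors merged the Cut&Tag replicates before calling peaks with MACS 1.4.2 (duplicates removed, mapping quality filter, no control library named), and the deposited peak score is the MACS score, which is not normalised for depth. The deposited FPKM values were computed by the authors with StringTie 2.2.1 and are not counts. The processed files do not hold the read depth behind the peak lists and FPKM values, and the read-pair totals in the study's notes served only to say which H3K27ac data set was the deeper.

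Here, start sites were the 5′ ends of protein-coding genes in GENCODE vM21, of which 20441 of 21938 (93.2%) matched an expression row by symbol. Peaks were overlapped by at least 1 base with Python 3.11.15, numpy 2.4.6, scipy 1.17.1 and pandas 2.3.3, and the class assignment was tested on simulated data. Differences are on the log2(FPKM+1) scale with a pseudocount of 1, which understates the change of low genes, among genes with 1 FPKM or more. The planned search of RefSeq promoter entries covered only 63.0% of promoters, so motifs and CpG content were read from the GRCm38.p6 genome instead, a choice made after the files were seen. At all 5583 promoters with the same start in both sources the sequences were identical.

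Genes were named by rule: members of the PrE, endoderm and basement membrane lists, and, at 5 FPKM or more, the 8 largest rises and 5 largest falls on day 9 and the 5 and 3 largest on day 5 among promoters unique to SALL4-delN12 in both settings, 5 and 5 for the SALL4-WT-only and shared classes, the 5 highest scores of each unique class, and up to 4 examples from other lists. Hprt, Pgk1, Actb, Gapdh and other genes given as examples beyond these were chosen after their values were seen. A few genes named by the rule are not reported here. The promoters and all 17 lists were chosen with earlier results of these data known. Alternatives covered the score minimum, the window, the number of peaks, the pseudocount and the FPKM minimum. Days 1 and 11 and the other experiments of the series were not used here.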

Additional observations from a re-analysis of the deposited data

How the results depend on the processing

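With a score of 200 or more required in both full lists, 4440 promoters were shared, 4531 were unique to SALL4-delN12 and 57 to SALL4-WT, a difference between the unique classes of 4474. With a score of 100 or more, 145 were unique to SALL4-WT. Starting from equal numbers of peaks, 5000 peaks each gave 3807 shared promoters, and equal covered length gave 368 unique to SALL4-delN12 and 2015 to SALL4-WT, a difference of -1647. Ranking peaks by score per base gave 3343 unique to SALL4-WT and a difference of -2533. The difference was -371 over promoters that overlap no other and -879 with 10000 peaks each. With equal numbers of promoters it was 0, as that matching fixes in advance. Of the genes unique to SALL4-delN12, a pseudocount of 0.1 gave 19.3% higher and 18.3% lower on day 5 and 20.0% and 18.0% on day 9. No FPKM minimum gave 7.28%, 6.96%, 8.25% and 7.19%, with a day 9 median of 0, and a minimum of 5 FPKM gave 16.5%, 15.7%, 18.0% and 17.6%. At equal numbers of peaks the shares were 11% higher on day 5 and 11.6% higher and 10.6% lower on day 9.

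At equal numbers of peaks 1 endoderm factor became unique to SALL4-WT, 2 basement membrane genes stayed unique to SALL4-delN12 and 2 became unique to SALL4-WT, and 0 visceral endoderm genes stayed unique to SALL4-delN12. Those that became unique to SALL4-WT were Sox7, Hspg2 and Fst, with scores there of 65.8, 122 and 54.4. Their SALL4-delN12 peaks scored higher, at 136, 147 and 157, but fell under the cut. SALL4-WT, SALL4-delN12 and MEF ATAC-seq peaks then overlapped 58.8%, 52.6% and 91.6% of the SALL4-delN12-only promoters. Median differences close to 0 changed sign: on day 5 from -0.01 to 0.01 for promoters unique to SALL4-delN12 with no SALL4-WT peak within 5 kb (chosen after seeing the data), from -0.02 to 0.05 for SALL4-WT-only promoters that overlap no other, and from 0.03 to -0.01 for those with neither peak at a minimum of 5 FPKM. Scaling the libraries to a median ratio of 1 turned the day 9 medians of shared promoters and of the NuRD genes from 0.02 to -0.01, and those of 2 listed genes near 0. No difference of 1 or more turned, and the causes of the changes were not tested. Within a day 1 library stands against 1, so no replicate could be left out. A fit that pairs the forms by day, with days in the place of replicates, was not run.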
